A study of Mus musculus with 2 samples.

Results

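The 10 genes described here encode Ets family transcription factors, and they were chosen by name: Ets1, Ets2, Fli1, Erg, Elf1, Elf2, Gabpa, Etv6, Spi1 and Elk3. They are 10 of the 21887 protein-coding genes of the RefSeq gene table of GRCm38.p6, the assembly known as mm10. The data are peak calls from chromatin immunoprecipitation followed by sequencing (ChIP-seq), which recovers the DNA fragments a protein is bound to. The antibody was directed against the Myc-Tag, a short peptide joined to the transgenic Dlx5 homeobox protein, so that it captured the product of the transgene. The transgene is driven by the Lck promoter, which is active in thymocytes, and the material was a T-cell lymphoma of a Lck-Dlx5 mouse. The series holds 1 Myc-Tag ChIP library and 1 input library of the same kind of lymphoma, with no replicates, and both carry the transgene. The sample labels give a primary tumor, of strain C57BL/6 for the ChIP and C57BL/7 for the input, whereas the methods give a single lymphoma cell line and an IgG control.

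Ets factors share a DNA-binding domain, the Ets domain, that reads a short core of GGAA. Several are central to blood formation: Ets1, Fli1 and Elf1 act in developing and mature T cells, and Spi1 (PU.1) acts in early progenitors and is shut off as cells commit to the T lineage. Others, such as Gabpa and Elf2, are used in most tissues. Ets1, Fli1, Elf1 and Spi1 are here called the lymphoid members, and Ets2, Erg, Elf2, Gabpa, Etv6 and Elk3 the other members. Dlx5 is a homeobox factor that is not normally used in T cells, and the core of the motif known for the Dlx family is TAATT.

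Of the 10 genes, 6 had a Myc-Tag interval in the gene body or within 10 kb on either side, and 4 had none. The 6 were Ets1, Fli1, Elf1, Ets2, Elf2 and Etv6, which together held 12 intervals. Elf2 had 4, Ets1 had 3, Etv6 had 2, and Fli1, Elf1 and Ets2 had 1 each. Spi1, Erg, Gabpa and Elk3 had no interval by this rule. Over all protein-coding genes 19.0% had at least 1 interval, and among the 9663 genes with a body between the shortest and the longest of the members it was 22.1%. At least 2 intervals were found at 3 of the members, against 3.14% of all protein-coding genes and 3.39% of those in the same range of length. The 3 intervals of Ets1 were reached by 0.567% of protein-coding genes and the 4 of Elf2 by 0.201%. For these 2 counts no share in the same range of length is given. With intervals closer than 10 kb merged the 12 became 10, and no share over all genes is given after merging. These shares are given for reading the counts, and no test was made, since genes of 1 library are not replicates and the 10 genes were chosen with earlier results known.

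**Figure D1:**
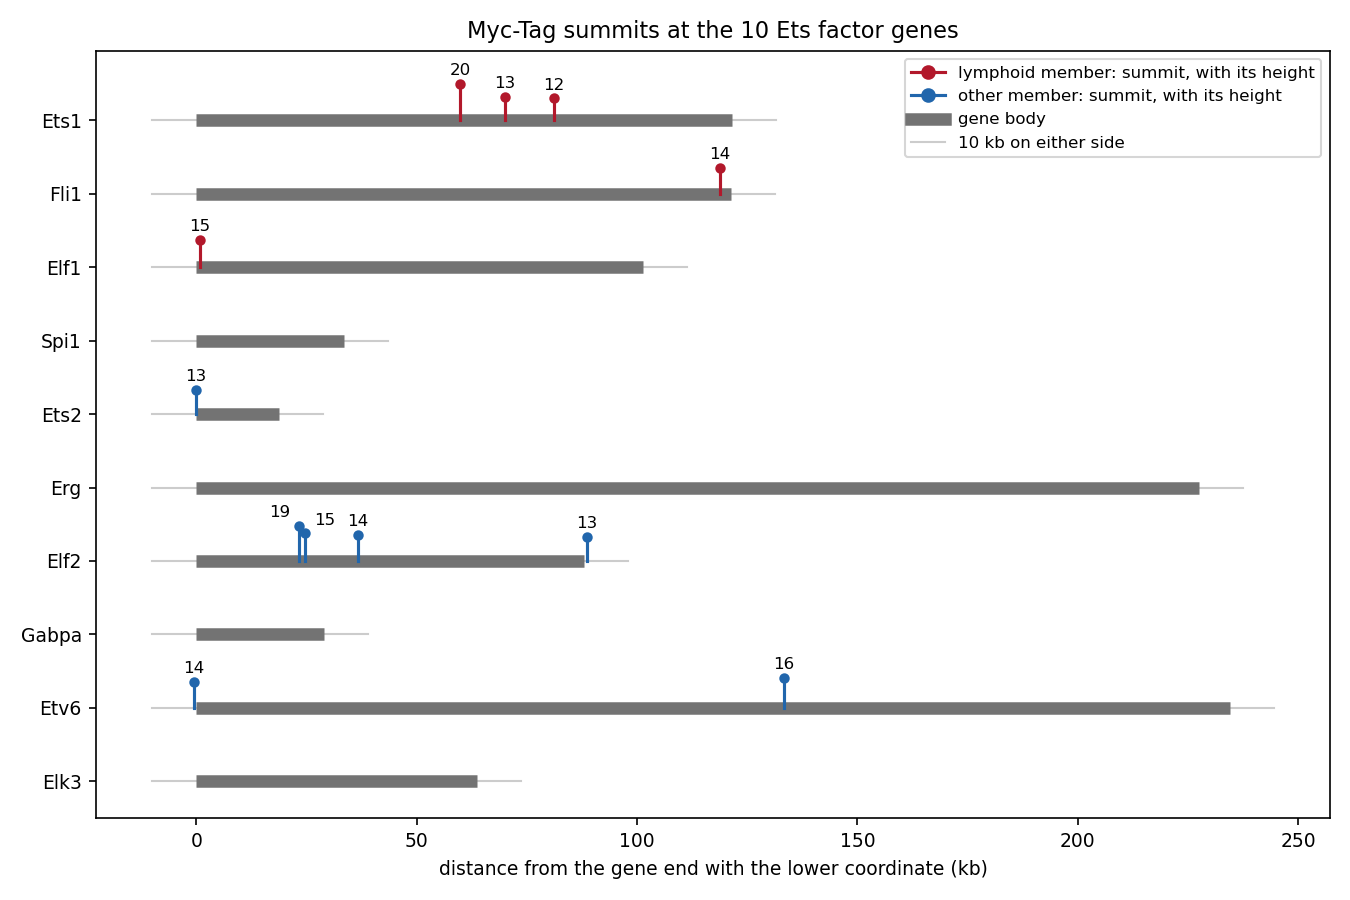
Map of the 10 Ets factor genes. Each grey bar is a gene body drawn from its end with the lower coordinate (x axis, kb), with 10 kb on either side as a thin line, and each stem is a Myc-Tag summit labelled with its deposited height. Elf2 carries 4 summits, Ets1 3, Etv6 2, and Fli1, Elf1 and Ets2 1 each, while the lines of Spi1, Erg, Gabpa and Elk3 are empty.

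The promoter windows of Ets2, Elf2, Erg, Gabpa and Elk3 are printed as examples of windows with and without an interval, picked after their values were seen. Each has 250 bases before and 50 bases after a listed transcription start, 5′ to 3′ on the strand of the gene, from RefSeq on GRCm38.p6. Capitals mark every match to TAATT and to CCGGAA, a longer form of the Ets core, on either strand (AATTA and TTCCGG are the same letters read from the other strand). The window of Ets2 is chr16:95702157-95702456 on the plus strand, that of the inner start of Elf2 is chr3:51277465-51277764 on the minus strand, that of the outermost start of Erg is chr16:95586544-95586843 on the minus strand, that of Gabpa is chr16:84834874-84835173 on the plus strand, and that of Elk3 is chr10:93311110-93311409 on the minus strand. The windows of Ets2 and Elf2 lie under a Myc-Tag interval and have no capitals, and those of Erg, Gabpa and Elk3 lie under none. The window of Elk3 has no capitals either, so the letters marked do not separate the windows with an interval from those without.
Ets2: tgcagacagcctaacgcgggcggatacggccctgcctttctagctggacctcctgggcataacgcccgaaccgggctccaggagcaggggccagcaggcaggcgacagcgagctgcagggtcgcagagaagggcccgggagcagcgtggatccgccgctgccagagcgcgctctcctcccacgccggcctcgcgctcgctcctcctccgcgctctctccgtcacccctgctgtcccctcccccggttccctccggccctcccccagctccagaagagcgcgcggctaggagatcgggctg
Elf2: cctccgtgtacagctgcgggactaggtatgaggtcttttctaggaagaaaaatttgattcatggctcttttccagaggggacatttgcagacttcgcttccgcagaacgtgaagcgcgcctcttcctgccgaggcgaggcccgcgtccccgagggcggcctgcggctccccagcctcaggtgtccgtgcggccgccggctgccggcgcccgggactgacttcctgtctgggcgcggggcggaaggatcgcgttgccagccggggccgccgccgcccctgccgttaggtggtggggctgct
Erg: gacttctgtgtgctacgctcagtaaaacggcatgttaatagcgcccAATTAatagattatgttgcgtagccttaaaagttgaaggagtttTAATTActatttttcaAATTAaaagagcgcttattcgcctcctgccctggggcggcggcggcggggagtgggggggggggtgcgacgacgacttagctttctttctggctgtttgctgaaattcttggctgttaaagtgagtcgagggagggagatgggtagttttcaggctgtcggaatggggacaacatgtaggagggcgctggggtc
Gabpa: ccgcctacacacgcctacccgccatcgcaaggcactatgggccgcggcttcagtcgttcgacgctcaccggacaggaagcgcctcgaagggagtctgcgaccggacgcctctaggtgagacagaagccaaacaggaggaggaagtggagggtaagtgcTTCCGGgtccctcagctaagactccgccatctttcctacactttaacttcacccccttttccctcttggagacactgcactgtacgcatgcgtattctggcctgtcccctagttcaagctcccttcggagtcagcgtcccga
Elk3: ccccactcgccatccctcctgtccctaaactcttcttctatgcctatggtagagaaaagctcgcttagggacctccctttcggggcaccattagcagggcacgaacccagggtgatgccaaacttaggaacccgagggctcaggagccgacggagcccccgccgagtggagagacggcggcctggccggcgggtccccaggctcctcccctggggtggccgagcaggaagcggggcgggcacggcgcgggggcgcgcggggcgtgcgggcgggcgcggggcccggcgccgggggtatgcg

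The deposited tables give for each Myc-Tag interval its ends and the position and height of its summit. Heights are whole numbers, and how they were normalized is not stated. The depth is unknown, as totals of reads were not used here, so a height carries no error. The Myc-Tag library had 3477 intervals, with summit heights from 9 to 301 and a median of 16. For the input 28 intervals are listed, all with the ends of a Myc-Tag interval, and none of the 12 at the members is among them. The tallest member summit was 20. No Myc-Tag interval of that height or less, of which there were 2827, was called in the input (0 of 2827), so the lack of an input call does not set the members apart. The build was settled from the coordinates, since the submitters' processing notes name mm9 and a browser view of the study shows mm10. Of the 3477 summits, 58.4% lay within 1 kb of an end of a protein-coding gene of GRCm38.p6, while such positions make up 2.93% of the span from the first to the last gene of each chromosome. The only interval of chromosome Y, at 90812086 to 90813302, lies inside the span of annotated genes of that chromosome in GRCm38.p6, whose last base is 90843932.

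Ets1, a T-cell factor required for normal thymocyte development, lies on chromosome 9 from 32636241 to 32757820. Its 3 intervals all lay inside the body. The first, at 32695408 to 32696484, reached a summit height of 20, the highest of the 12. The second, from 32705818 to 32706488, had a height of 13 and the third, from 32716996 to 32717707, a height of 12. The first was also the widest of the 3, at 1077 bp against 671 bp and 712 bp. Of all Myc-Tag summits, 18.7% were higher than the first, 70.9% higher than the second and 81.4% higher than the third. The Ets1 gene thus carried both the highest and the lowest of the member summits. The summits lay 10.1 kb and 11.1 kb apart, at 49.2%, 57.5% and 66.7% of the body from its lower coordinate end. No start of Ets1 is in the promoter table used here, so their distance from a start of the gene is not given. None of the 3 overlapped another annotated gene.

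Fli1, which acts in blood stem cells and in megakaryocytes and lymphocytes, is the neighbour of Ets1 on chromosome 9, from 32422204 to 32543432. It had a single interval, at 32540605 to 32541361, which was 757 bp wide and reached a summit height of 14. The summit lay inside the body, 2429 bp from the end with the higher coordinate. The 2 genes are 92.8 kb apart with no other protein-coding gene between them. All 4 intervals of the stretch of 336.0 kb from the lower end of Fli1 to the higher end of Ets1 were inside the 2 gene bodies and 0 were between them.

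Elf1, an Ets factor of T cells and other blood cells, lies on chromosome 14 from 79481174 to 79582491. Its interval, from 79480650 to 79482256, was the widest of the 12, at 1607 bp, and only 2.67% of all Myc-Tag intervals were wider. The summit height was 15, and 1739 of the 3477 summits were higher. The summit lay 774 bp downstream of the first listed start of Elf1 and 700 bp from that of Wbp4, a gene read from the other strand whose body ends at 79481268, inside Elf1. The interval also held a transfer RNA gene, n-TEttc4, from 79481668 to 79481739, and the summit was 229 bp outside it. Which of the 3 genes the interval belongs to cannot be told apart from its position. A second listed start of Elf1, 33706 bp from this summit, had no interval at its window.

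Spi1, on chromosome 2 from 91082374 to 91115759, had no interval in its body or within 10 kb. The nearest summit was 12038 bp outside the body, at 91070336, with a height of 30. It lay inside the gene Slc39a13, a zinc transporter, and the nearest listed start was that of Gm39874, 15 bp away. Its distance from the body of Spi1 put it outside the rule of 10 kb by a short way. No start of Spi1 is in the promoter table used here.

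Ets2, a broadly used factor that responds to growth factor signals, lies on chromosome 16 from 95702407 to 95721049. The interval, at 95701536 to 95702910, was 1375 bp wide with a summit of height 13. The summit at 95702272 was 135 bp upstream of the listed start. Among the members with listed starts, which leaves out Ets1 and Fli1, this and the 138 bp at Elf2 were the shortest distances to an own start. Most summits lie on multiples of 16 bp, so these 2 distances are not ranked. Among the same members, the Ets2 summit was the only one that fell inside a promoter window of its own gene. The whole window of Ets2 shown above lay under the interval, and it held no TAATT. The interval overlapped no other annotated gene.

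Erg, a factor of blood stem cells and endothelium, is the neighbour of Ets2 on chromosome 16, from 95359169 to 95586600. With a body of 227.0 kb it is the second longest of the 10, and it had no interval. The summit nearest to it was that of Ets2, 116.0 kb away. Over the 362.0 kb from the lower end of Erg to the higher end of Ets2 there was 1 interval, against 4 over the stretch of Fli1 and Ets1, which is of like length. This difference in number was not tested.

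Elf2, a widely used relative of Elf1, lies on chromosome 3 from 51252720 to 51340683 and is read from the minus strand. Its 4 intervals had summit heights of 19, 15, 14 and 13, in the order of their coordinates. The first, from 51275768 to 51276322, had the second highest summit of the 12 and the narrowest interval, at 555 bp. The second, from 51276908 to 51277744, had its summit 138 bp downstream of the inner start of Elf2 whose window is shown above, and it overlapped the noncoding RNA gene 4930577N17Rik. The first lay only 1.28 kb from the second, so that both stood around this inner start, the first at 1418 bp downstream. The third, from 51288963 to 51289601, lay inside the body 11766 bp upstream of the same start. The last, from 51340775 to 51341531, lay outside the body, and its summit was 604 bp upstream of the outer start. Elf2 thus had an interval at each of its 2 listed starts. It was the sole member with that, as Elf1 had an interval at the first of 2 and Erg at none of 3.

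Etv6, a repressor required in blood stem cells, lies on chromosome 6 from 134035700 to 134270158. One interval, at 134034853 to 134035797, reached a summit height of 14 at 596 bp upstream of the listed start. The same summit was 208 bp from the start of Gm46977, a predicted protein-coding gene read from the other strand, and lay inside it. The other interval, from 134168750 to 134169321, had a height of 16 and lay inside the body, 133292 bp downstream of the start. Since both genes begin within 1 kb of the first summit, it cannot be assigned to Etv6 alone.

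Gabpa and Elk3 had no interval, and their nearest summits were far. Gabpa encodes the Ets subunit of the GA-binding protein, which serves housekeeping and mitochondrial genes. Its body lies on chromosome 16 from 84834891 to 84863783, and the nearest summit was 99.6 kb away, with a height of 18, at 52 bp from Mrpl39, a mitochondrial ribosomal protein gene. Elk3 encodes a partner of serum response factor. Its body lies on chromosome 10 from 93247415 to 93311159, and the nearest summit was 123.0 kb away, with a height of 14, nearest to the protein-coding gene Cdk17 at 36396 bp. For genes without an interval, binding was not detectable at the threshold of the calls, which is not stated.

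The lymphoid and the other members were compared by count and height. Of the 4 lymphoid members 3 had an interval, and of the 6 other members 3 had one. The intervals numbered 5 and 7, or 1.09 and 0.896 for each 100 kb of gene body with its 10 kb sides. Summit heights ran from 12 to 20 with a median of 14.0 at the lymphoid members, and from 13 to 19 with a median of 14.0 at the others. The heights of both groups overlapped over nearly their whole range. A difference between the groups was not tested, since 4 and 6 genes of 1 library give no measure of spread. Summits within 1 kb of a gene end were found at 1 lymphoid member, Elf1, and at 3 other members, Ets2, Elf2 and Etv6. The 4 remaining lymphoid intervals, at Ets1 and Fli1, lay inside the bodies and over 1 kb from both ends, as did 4 intervals of the other members. The Fli1 summit was 2429 bp from an end of its body. No start of Ets1 or Fli1 was listed, so whether their intervals lie at a start cannot be told.

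Over all 12 intervals, summit heights ran from 12 to 20, with a median of 14.0. Only 3, the first of Ets1 and of Elf2 and the inner one of Etv6, reached the median of 16 of the whole library, as did 1739 of all 3477 summits. The members thus had several intervals of low to middle height. Among the 10 genes, 4 had a summit within 1 kb of either end (Elf1, Ets2, Elf2 and Etv6), against 10.8% of all protein-coding genes. The heights of these 4 summits were 13 to 15, and those of the 8 summits farther inside the bodies were 12 to 20. The 8 inside intervals had a median width of 691.5 bp and the 4 at the ends one of 1160.0 bp.

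**Figure D2:**
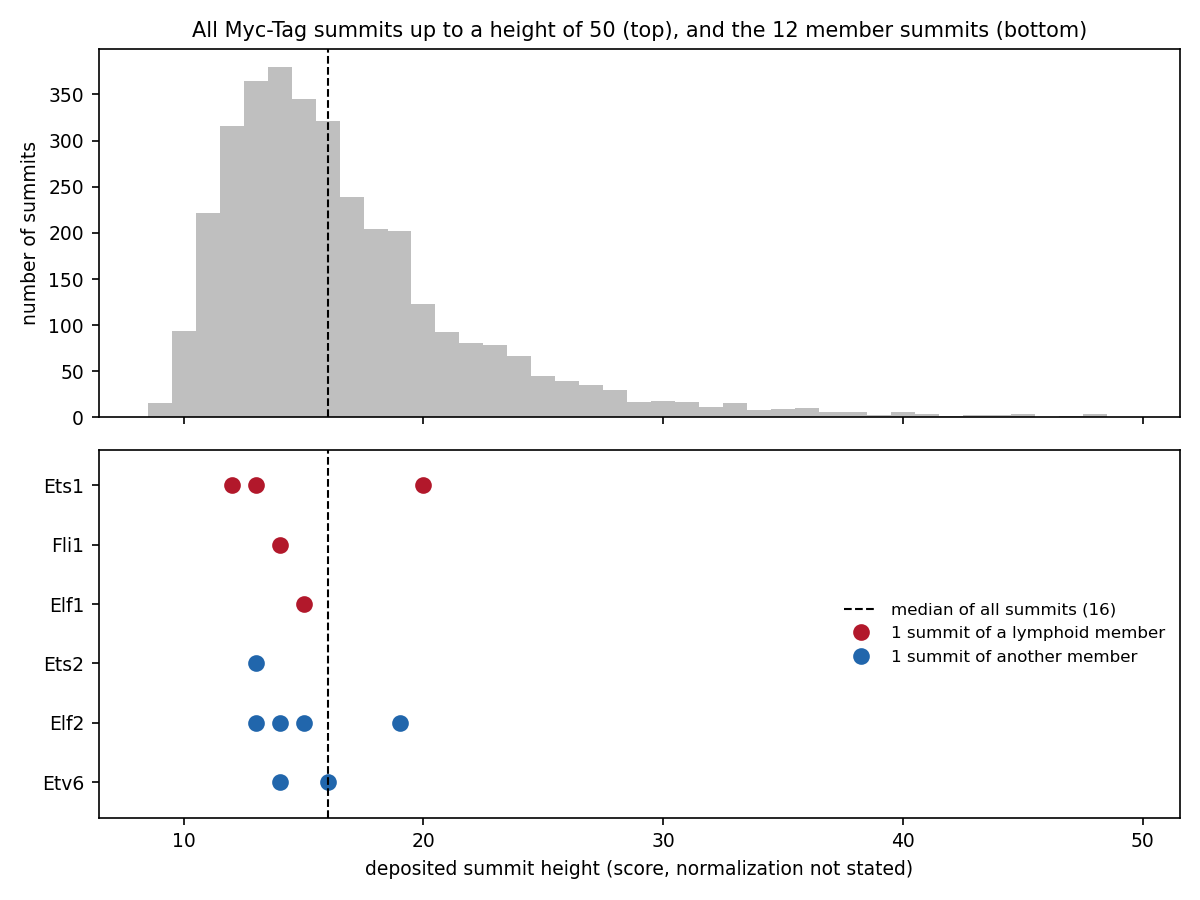
Deposited summit heights (x axis, a score without stated normalization). The top panel counts all Myc-Tag summits up to a height of 50, and the bottom panel gives each of the 12 member summits as a point, with lymphoid members in red and other members in blue. The dashed line is the median of all summits, 16, and 9 of the 12 points lie to its left.

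The intervals were then placed along the genes. Of the 12 intervals, 8 had the summit inside the body and over 1 kb from both ends, 4 within 1 kb of an end, and 0 farther outside. For protein-coding genes in the same range of length there were 2524 pairs of a gene and an interval by the same rule. They divided into 24.7%, 49.0% and 26.3%. The inside share was larger at the members, but only the range of length was matched. Of the 9663 genes in that range 5094 span 20 to 50 kb, whereas the 4 members with inside intervals span 88.0 to 234.0 kb. A longer body holds more positions inside, so the shares are not alike in this. The 8 came from 4 genes, 3 of them from Ets1 and 3 from Elf2, so they are not independent. Gene ends here are the outermost over all transcripts, and an inner start is not an end. Of the 8, 1 at Elf2 had its summit 138 bp from an inner start. Of the 8 intervals at Elf1, Ets2, Elf2 and Etv6, for which starts are listed, 5 had the summit within 1 kb of a listed own start. Over the library, 56.5% of 3377 summits lay within 1 kb of a listed start of any gene, so the 5 of 8 are near that share. Inner starts of Ets1 and Fli1 were not analysed here, nor were exons and introns.

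The remaining mouse Ets factor genes were examined as a list of 17. Of these, 4 had an interval by the same rule (23.5%, against 19.0% of all protein-coding genes), so that 10 of 27 Ets factor genes had one. Elk4, a partner of serum response factor, had the tallest, with a summit height of 24 at 92 bp downstream of a listed start, and 9.49% of all summits were higher. Etv3, a repressor, had a height of 11 at 278 bp downstream of its start. At Erf and Spib the intervals lay outside the genes and overlapped Gsk3a, with a height of 18, and Mybpc2, with a height of 11. None of the 17 had more than 1 interval, where 3.14% of all protein-coding genes did, and their bodies add up to 407.6 kb against 1039.0 kb for the 10 members. The other 13 had no interval.

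Of 11 genes for partners of Ets factors and a kinase that acts on them, 8 had an interval, against 19.0% of all protein-coding genes. With the gene body alone or 1 kb on either side it was 6, without Crebbp and Gata3. The 19.0% holds for 10 kb on either side, and no share is given for these narrower rules. Gabpb2, for a subunit that joins Gabpa, had the tallest summit at an own start, with a height of 32 at 22 bp downstream, and a further interval of height 16 that overlapped Mllt11 and Cdc42se1. Gabpb1, for the related subunit, had a height of 15 at 128 bp upstream of a start. The genes of both partners of Gabpa thus had an interval at a start, whereas Gabpa had none. These intervals also overlapped noncoding RNA genes, A630026N12Rik at Gabpb1 and Gm16740 at Gabpb2, so neither can be assigned to the partner gene alone. Of the genes for the Runx factors, which bind beside Ets1 at many T-cell elements, Runx1 had an interval of height 13, and Runx3 had none. The Runx1 summit lay inside the body, 1487 bp upstream of a listed start of Runx1. Cbfb, for the shared partner of the Runx factors, had a summit of height 14 at 974 bp downstream of its start. Among the coactivators, Ep300 had a height of 18 at 294 bp upstream of its start, while the interval counted at Crebbp, with a height of 41, lay 46 bp from the start of its neighbour Trap1. Myb had a height of 11 at 328 bp upstream of its start, and the summit counted at Gata3, of height 14, was 1519 bp from the nearer end of that gene. The interval counted at Gata3 overlapped only the noncoding RNA gene 9230102O04Rik. Srf and Mapk3 had none. In the input, 0 of these 9 intervals were called.

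**Figure D3:**
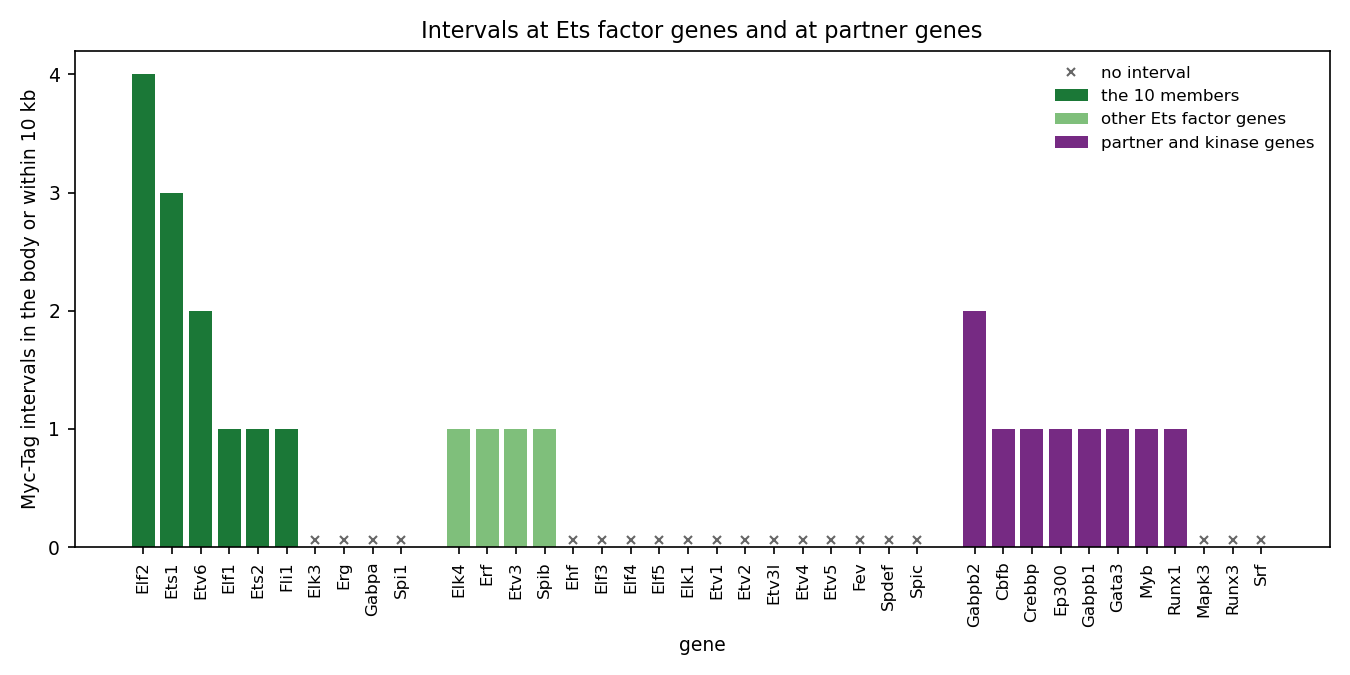
Number of Myc-Tag intervals in the body or within 10 kb (y axis) for the 10 members, the 17 other Ets factor genes and the 11 partner and kinase genes, with a cross where there was none. Elf2 reaches 4 and Ets1 3, no other Ets factor gene exceeds 1 besides Etv6 with 2, and 8 of the 11 partner and kinase genes have at least 1.

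The promoter table lists 11 windows for 7 of the members. An interval overlapped 5 of them: those of Ets2, Etv6, the first of Elf1 and both of Elf2. The bases covered were all 300 at Ets2, Elf1 and Etv6, 280 at the inner start of Elf2 and 120 at its outer start. The 5 overlapped windows held 57.3% to 78.7% G and C and 17 to 43 CpG dinucleotides, and the 6 not overlapped held 37.3% to 71.3% and 2 to 31. Over all 32817 windows the medians were 52.7% and 7.0, and over the 2378 windows overlapped by any Myc-Tag interval they were 63.3% and 25.0. All 5 overlapped member windows were richer in G and C than the median of all windows, as were those of Gabpa and Elk3 without an interval.

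TAATT, searched on both strands with overlapping matches counted, was in 0 of the 5 overlapped member windows and in 4 of the 6 others. Of the 5, only the window of Ets2 held the summit of its interval, so the count says little about the letters at the summits. Those 4 were the 3 windows of Erg and the second of Elf1, all at or under 50.3% G and C. The outermost window of Erg, shown above, held 4 matches, the most of any member window, and a summit was called no nearer than 115679 bp. Over all windows 27.0% held TAATT, against 14.1% of those overlapped by an interval. The share fell with the G and C content of the window. At 30% to 40% G and C it was in 66.7% of the 6 overlapped windows and 69.7% of the others. At 40% to 50% it was in 43.3% of overlapped and 40.5% of other windows, at 50% to 60% in 23.6% and 19.3%, at 60% to 70% in 8.91% and 8.64%, and at 70% to 80% in 3.14% and 1.53%. GGAA was in all 11 member windows, and in 96.0% of all windows, so that it sets none of them apart. The longer CCGGAA was in the window of Gabpa alone among the members, which has no interval, whereas it was in 14.9% of all windows and in 37.5% of those overlapped by an interval. A match says only that these letters stand in the window, and bases under the summits outside the windows were not analysed here.

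**Figure D4:**
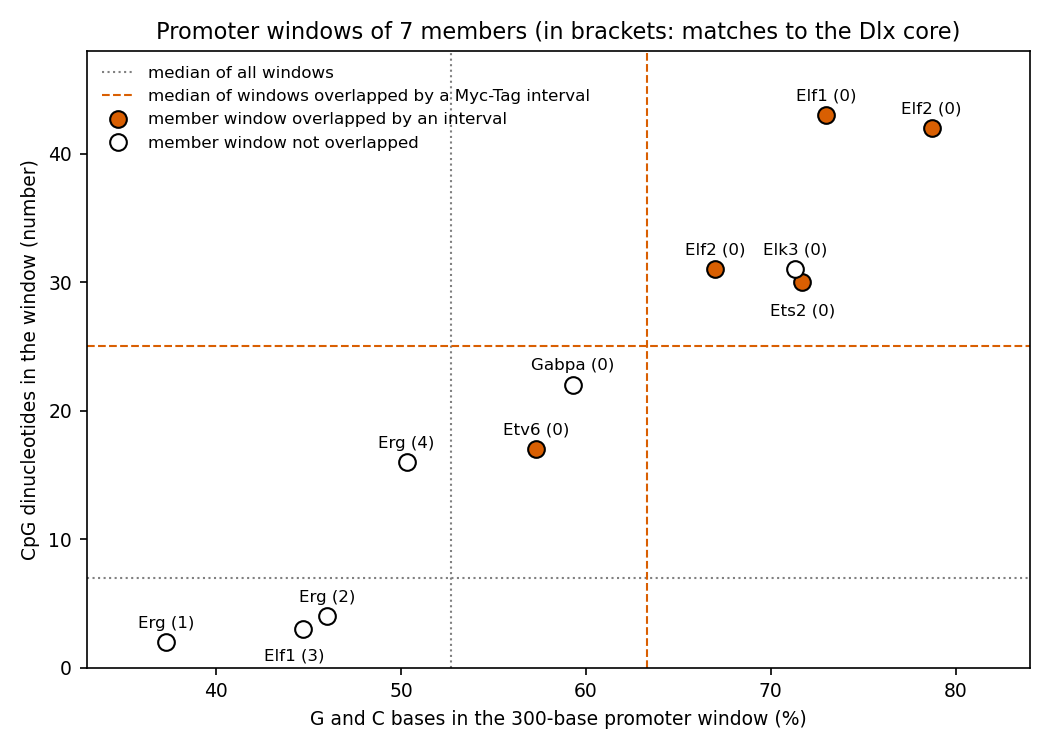
Base composition of the 11 listed promoter windows of 7 members. The x axis gives the share of G and C bases in the window (%) and the y axis its number of CpG dinucleotides, with filled points for windows overlapped by a Myc-Tag interval and the number of TAATT matches in brackets. The 5 filled points hold 0 matches each, and the 4 windows with matches, 3 of Erg and 1 of Elf1, lie at 50.3% G and C or below.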

How the data were processed

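ChIP-seq of a Lck-Dlx5 T-cell lymphoma gave 1 Myc-Tag library and 1 input library. Sequencing (Illumina GA II) and analysis were done by Active Motif, and MACS p-values were used for peak calling. BWA is named in the submitters' processing notes. Versions, threshold, read extension and the control used for calling are not given in the sources used here. The authors deposited a score for every summit, namely its height, of unstated normalization. Of the 3477 summits 3329 lay on multiples of 16 bp, so positions are not exact to the base.

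Summits were matched to their intervals by position, and starts are counted from 1. A gene had an interval when at least 1 bp fell in the body or within 10 kb. Genes came from the RefSeq table of GRCm38.p6, in which all 38 symbols matched, and starts from the RefSeq promoter windows. The members, lists and rules were chosen with earlier results of these data known, and the search for CCGGAA was added after the windows were seen. Named were all members, listed genes with an interval, and protein-coding genes overlapped by or nearest to these intervals or, for members without one, to the nearest summit. Some genes without an interval were also named, after their values were seen. With 1 library a group no p-value was computed. The result for 1 planned partner gene is not reported here. Alternatives were other distances, a height threshold, another overlap, merging, and other groupings of lymphoid members. Python 3.11.15, numpy 2.4.6, pandas 2.3.3 and matplotlib 3.10.9 were used, and the counting was tested on simulated data.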

Additional observations from a re-analysis of the deposited data

How the results depend on the processing

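In 34 of 44 cases an alternative left the count within 1.5 times the value reported, and in 10 it did not. Shares over all protein-coding genes are given above for the main rules only. None is given for the alternatives, so the counts below have no share to be read against. The number of members with an interval was 6 with the gene body alone and with 1 kb on either side. It was also 6 without intervals called in the input and with 50% of the interval required inside. With 50 kb it was 7, where Spi1 was added. When only summits of at least the median height were kept, 3 members, 3 member intervals, 1 lymphoid member, 2 of the remaining Ets factor genes and 3 partner genes were left. Fewer follow from the construction of that alternative. The number of remaining Ets factor genes was 2 with the gene body alone and with 1 kb, which leaves out Erf and Spib, and 7 with 50 kb. The number of members with a summit close to a gene end was 1 within 500 bp, Ets2, and 5 within 5 kb, where the lymphoid member Fli1 was added. It was 0 when only summits of at least the median height were kept. Counting Erg and Etv6 as lymphoid gave 4 of 6 lymphoid and 2 of 4 other members with an interval. Merging intervals closer than 10 kb left 10 member intervals.

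No paired analysis was possible because there was 1 library in each group. Replicates could not be left out. The unstated threshold and unknown depth limit each statement on genes without an interval.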

Other observations

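CCGGAA, the longer form of the Ets core searched in the windows of the members, was in 37.5% of the 2378 promoter windows overlapped by a Myc-Tag interval and in 13.1% of the 30439 others, although it was in 0 of the 5 overlapped member windows. The search was chosen after the windows of the members were seen. Overlapped windows were richer in G and C, with a median of 63.3% against 52.0%. They also held more CpG dinucleotides, with a median of 25.0 against 6.0. CCGGAA contains a CpG, and the classes below match windows by G and C but not by CpG. Within windows of 30% to 40% G and C, CCGGAA was in 0 of 6 overlapped windows and in 1.7% of the others. Within 40% to 50% the shares were 29.3% and 5.33%, and within 50% to 60% they were 41.1% and 15.6%. Within 60% to 70% they were 40.9% and 26.0%, and within 70% to 80% they were 30.6% and 20.2%. For TAATT the shares were 66.7% and 69.7% within 30% to 40%, and 43.3% and 40.5% within 40% to 50%. From 50% upward the same classes gave 23.6% and 19.3%, 8.91% and 8.64%, and 3.14% and 1.53%. Windows of neighbouring genes share intervals, and no test was made. Whether an Ets factor or Dlx5 was bound at these letters was not tested.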
